A study of Mus musculus with 3 samples.

Results

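Superficial cells that carried Cnfn were compared with superficial cells that carried none. Cnfn encodes cornifelin, a protein of the cornified envelope, and lies at chr7:25367620-25369724 on the minus strand of GRCm38. The cells were those that the submitters labelled Squam and that held 2000 or more unique molecular identifiers (UMIs, each counted as 1 RNA molecule). A Cnfn cell held 2 or more raw UMIs of Cnfn, and the others held 0. There were 833 Cnfn cells among 5212 such superficial cells, of 38111 cells in all. Another 390 superficial cells held 1 UMI of Cnfn and entered neither kind. Because Cnfn chose the cells, it was left out of every comparison.

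The study profiled the corneal epithelium of healthy C57BL/6J mice with droplet single-cell RNA-seq (10x Chromium, 3′ v3.1 chemistry). Each of the 3 libraries pooled animals: library 1 held 4 corneas from 2 male mice of 20 weeks, library 2 held 4 corneas from 2 female mice of 11 weeks, and library 3 held 7 corneas from 7 male mice of 10 weeks. No treatment was given and no genotype other than the strain is labelled, so both kinds of cells came from the same untreated mice. Sex, age and library cannot be told apart here. The libraries held 9488, 11273 and 17350 cells with a median of 16160, 13232 and 8334 UMIs, and 142 of 37969 barcode sequences occurred in 2 libraries.

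The corneal epithelium renews from its limbal and basal layers and sheds its outermost, superficial cells at the tear film. In the skin, cells about to be shed replace the plasma membrane with a cornified envelope, which cross-links small proline-rich proteins, late cornified envelope (LCE) proteins, loricrin and involucrin under the scaffold proteins envoplakin and periplakin. A healthy cornea does not keratinise, and its surface cells carry membrane mucins and microridges instead.

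Cnfn cells were rare outside the superficial class and uneven across libraries. They made up 19.9% of the superficial cells in library 1 (95% exact Clopper-Pearson interval 17.7 to 22.3), 28.2% in library 2 (25.8 to 30.7) and 8.31% in library 3 (7.30 to 9.42), and these intervals did not overlap. The mean was 18.8% ± 9.99 (SD, n = 3). With every cell thinned to 2000 UMIs before the choice, the mean was 5.01% ± 3.15. At least 2 Cnfn UMIs were found in 113 of 13408 wing cells, 27 of 2398 conjunctival cells and 0 of 8596 basal cells, which allows a share of up to 0.0349%. At least 1 UMI was held by 23.5% of superficial cells, at median depths of 21990, 18860 and 9397 UMIs in libraries 1 to 3, against 0.175% of basal cells, which should lack the gene, at 13262, 9962 and 5933. Cnfn cells carried a median of 5, 7 and 4 Cnfn UMIs and at most 112, 131 and 85. Intervals cover counting error only.

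The 2 kinds of cells were of similar depth in libraries 1 and 2 but not in library 3. Cnfn cells had a median of 21643, 19376 and 12688 UMIs in libraries 1 to 3, and the others had 22034, 18851 and 9035. After every cell was thinned to 2000 UMIs, Cnfn cells held a mean of 639, 656 and 682 genes and the others 730, 719 and 716, so Cnfn cells held fewer genes in 3 of 3 libraries. The difference was -62.8 genes ± 28.4 (SD of the library differences, n = 3; exact two-sided sign-flip p = 0.25, the smallest that 3 libraries allow). The median mitochondrial share was also lower in 3 of 3 libraries, at 0.869%, 0.845% and 0.983% in Cnfn cells against 1.09%, 0.989% and 1.16% in the others (exact sign-flip p = 0.25). A doublet score, the share of simulated doublets among each cell's neighbours, had medians of 0.21, 0.30 and 0.36 in Cnfn cells and 0.24, 0.22 and 0.26 in the others. Its part in the results was not tested beyond a fit without the highest scores.

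Raw UMIs were summed over each kind of cell in each library, giving 6 sums, and compared with edgeR's quasi-likelihood test with the library as a block. Of 9761 genes tested, 1491 (15.3%) differed at a Benjamini-Hochberg adjusted p under 0.05. Cnfn cells were higher for 961 of them (9.85% of the genes tested) and lower for 530 (5.43%), and the median log2 fold change of all genes was -0.04. With library totals and no scaling factor the median shifted by -0.26, and 602 genes were higher against 2690 lower, so small changes below depend on the scaling. The 24 largest changes named here kept their direction and their call without scaling. The 3 sums of Cnfn cells lay above all 3 sums of the others for 1363 genes (14%) and below them for 1459 genes (14.9%). Leaving out library 2 left 215 called genes, against 734 without library 1 and 2466 without library 3. The libraries are pools of animals. With the library as a block, p-values set the difference between the 2 kinds of cells against its spread over these 3 pools.

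**Figure D1:**
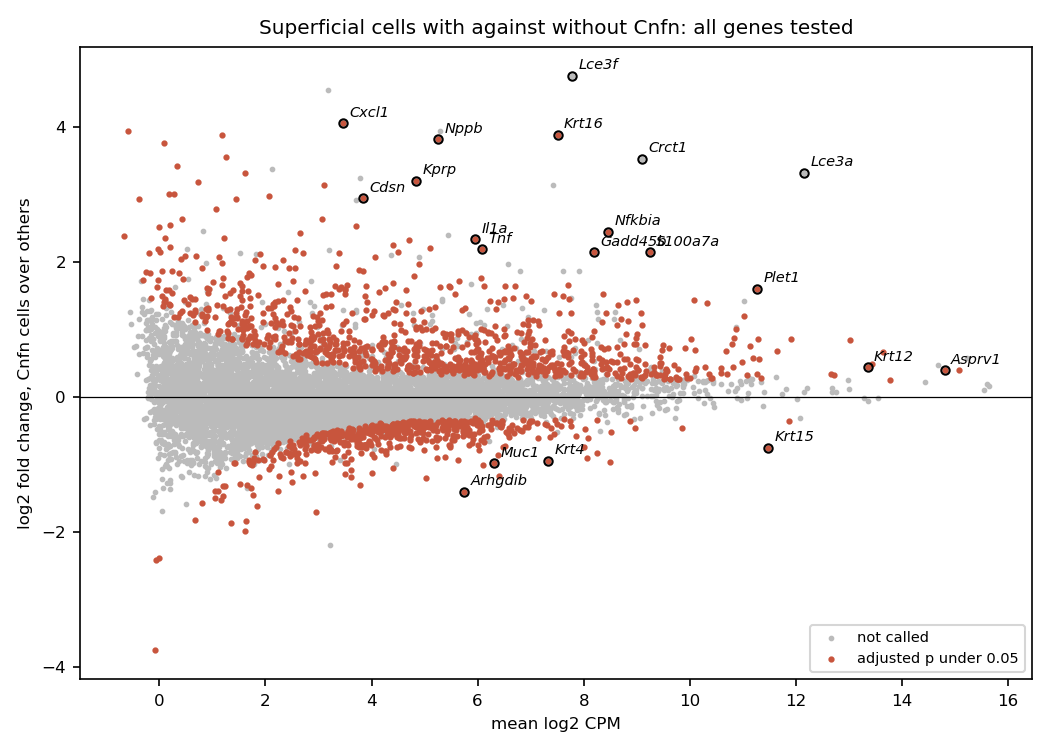
Log2 fold change of each gene, Cnfn cells over the others, against its mean log2 CPM (counts scaled by edgeR to a common library size) in the 6 sums. Red points have an adjusted p under 0.05 and labelled genes are described in the text. Krt16, Nppb and Cxcl1 are called at 3.88, 3.81 and 4.05, while Lce3a, Crct1 and Lce3f lie at 3.32, 3.53 and 4.75 without being called.

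Few genes of the cornified envelope, the structure that cornifelin belongs to, passed the test in the main fit. Of 49 listed members 23 were in the table, 11 passed the filter on low counts, 1 was called higher and 0 were called lower, where 9.85% and 5.43% of all genes tested were called higher and lower. A count of 1 in 11 is near that background, but the count depended on the fit. DESeq2 called 5 of 11 higher, and cells matched for UMIs gave 4 of 11. Thinning to 2000 UMIs gave 3 of 10, and leaving out the highest doublet scores gave 2 of 11. In each of these fits 0 were lower, and 630, 965, 385 and 767 genes in all were called higher. Without scaling 1 was higher and 1 lower. In the main fit the log2 fold changes of the 11 ran from -0.33 (Evpl) to 4.75 (Lce3f) with a median of 3.14, and 6 of them had sums that did not overlap and were higher in Cnfn cells. Members passing such a filter can do so through the cells in which they are high. With no filter 21 were tested, 3 were higher and 1 was lower, where 7.97% and 6.79% of 15779 genes were called higher and lower.

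Lce3a, an LCE protein gene at chr3:92925287-92926230 (minus strand), had 15803, 7619 and 1986 CPM in Cnfn cells of libraries 1 to 3, against 928, 446 and 637 CPM in the others. CPM here are counts scaled to a common library size with TMM factors. The kinds of cells did not overlap, yet the excess in library 3 was much smaller than in the other libraries. The log2 fold change was 3.32 ± 0.87 (standard error, n = 3) with an adjusted p of 0.156. Without library 3 it was 4.12 with an adjusted p of 4.6e-17, and DESeq2 on all 3 libraries gave 3.33 with 2.7e-04. Over all alternatives the log2 fold change was 2.86 to 4.12, with adjusted p-values up to 0.491.

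Crct1, a cysteine-rich gene of the same chromosome 3 cluster, had 1187, 1373 and 515 CPM in Cnfn cells and 96.6, 61.1 and 93.3 CPM in the others. Its log2 fold change was 3.53 ± 0.59 with an adjusted p of 0.0755, which was 0.397 without library 1, 0.0049 without library 2 and 0.0028 without library 3. Kprp, which encodes a proline-rich protein of keratinocytes, was the member called: it had 98.0, 57.9 and 18.3 CPM in Cnfn cells and 6.91, 5.51 and 4.51 CPM in the others. Its log2 fold change of 3.20 ± 0.38 had an adjusted p of 0.016. That call was lost without library 1 (adjusted p = 0.068) and without library 2 (0.094).

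Other LCE genes were not called, and most of them differed little in library 3. Lce3f had 645, 470 and 186 CPM in Cnfn cells and 27.7, 5.21 and 15.9 CPM in the others, a log2 fold change of 4.75 ± 0.87 with an adjusted p of 0.098. In library 3 a single Cnfn cell held 74.4% of the Lce3f UMIs. Lce3b, Lce3c and Lce3e had log2 fold changes of 3.14, 2.11 and 3.24 and adjusted p-values of 0.314, 0.260 and 0.197. In library 3 Cnfn cells had only 1.08, 1.20 and 1.42 times the level of the others for these 3 genes. The log2 fold change of Lce3b was 2.06 without library 1 and 4.31 without library 3, and Lce3c was called without library 3 (2.94, adjusted p = 8.9e-05). LCE3 genes are near-identical neighbours, and the files do not say how reads matching several of them were counted. Sprr1a, a small proline-rich protein, had 23.9, 163 and 52.7 CPM in Cnfn cells and 11.2, 17.8 and 8.42 CPM in the others (log2 fold change 2.39 ± 0.55, adjusted p = 0.102).

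The envelope's scaffold genes were not called, and its classical skin components were near 0. Envoplakin (Evpl) had a log2 fold change of -0.33 (adjusted p = 0.055) and periplakin (Ppl) 0.06 (0.618). Among the transglutaminases, the cross-linking enzymes, 0 of 3 genes that passed the filter were called, where 15.3% of all genes tested were. Tgm1, the enzyme of skin cornification, named after its values were seen, had 29.5, 39.2 and 41.4 CPM in Cnfn cells and 31.2, 21.9 and 27.8 CPM in the others (log2 fold change 0.45 ± 0.17, adjusted p = 0.109). Loricrin (Lor) had 4, 3 and 1 UMIs in all Cnfn cells of libraries 1 to 3 and 6, 4 and 5 in all the others. Involucrin (Ivl) had 4, 7 and 2 against 8, 6 and 15 UMIs, and filaggrin (Flg) had 0 in both kinds. The cells are therefore described here by Cnfn and not as cornified cells.

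**Figure D2:**
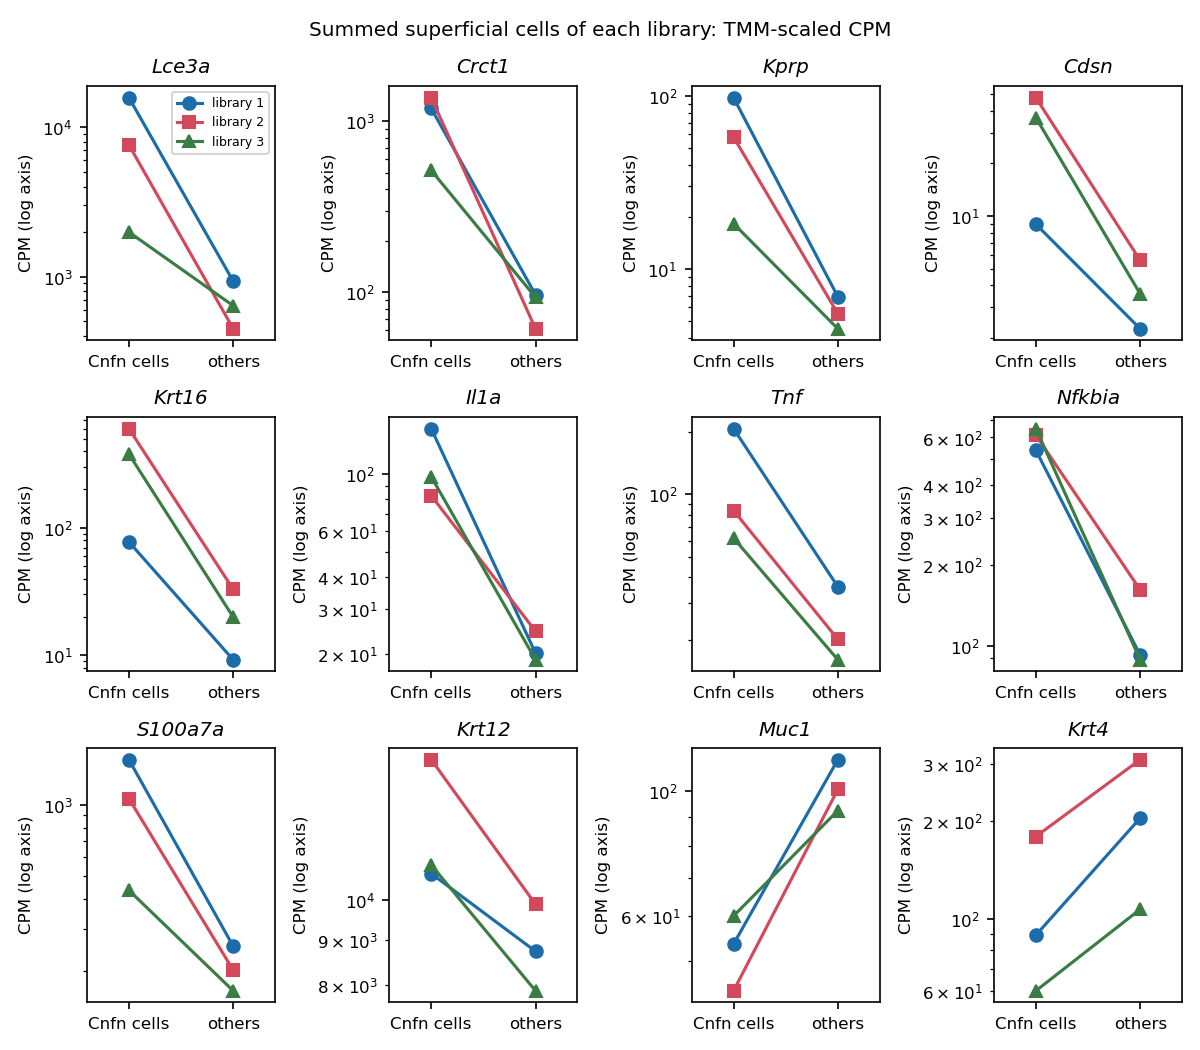
TMM-scaled CPM (log axis) of 12 genes in the summed Cnfn cells (left of each panel) and the summed others (right), with a line for each library. Krt4 and Muc1 are lower in Cnfn cells of every library and the other 10 genes are higher, and the Lce3a slope is shallowest in library 3.

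The late cornified envelope genes lie in the epidermal differentiation complex. Over the stretch chr3:90511034-93564643 (GRCm38, S100a1 to S100a10, chosen after its values were seen), 23 genes were tested, 6 were higher in Cnfn cells and 0 were lower, beside 9.85% higher and 5.43% lower over all genes. The 6 were Kprp, S100a7a, Pglyrp4, S100a10, S100a14 and S100a16. The median log2 fold change of the 23 was 0.66, beside -0.04 over all genes tested, and 21 were above 0. The 23 are the genes that passed the filter on low counts, which they can do through the cells in which they are high. Since the stretch was also chosen on its values, these counts are only a description.

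Some of the genes that act in shedding were higher in Cnfn cells. Of 22 proteases, inhibitors and junction proteins of desquamation, 12 were called higher, 0 lower and 10 were not called, beside 9.85% higher and 5.43% lower over all genes, with a median log2 fold change of 0.67 (11 and 0 without scaling). With no filter on low counts 15 of 25 were higher and 0 lower, beside 7.97% and 6.79% of all genes. Corneodesmosin (Cdsn), the adhesive glycoprotein of skin corneodesmosomes at chr17:35552128-35557180, had 8.98, 47.7 and 36.6 CPM in Cnfn cells and 2.26, 5.57 and 3.58 CPM in the others. Its sums did not overlap, and its log2 fold change was 2.94 ± 0.23 with an adjusted p of 6.4e-04. Leaving out any 1 library kept that call.

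Asprv1, an aspartic protease that processes filaggrin in the skin, was abundant in both kinds of cells. It had 35039, 35456 and 27832 CPM in Cnfn cells and 23936, 26517 and 23612 CPM in the others (log2 fold change 0.40 ± 0.08, adjusted p = 0.011). The sums did not overlap, although library 3 differed least, and without library 2 the adjusted p was 0.285. Prss27, a serine protease, had 2781, 2393 and 1892 CPM in Cnfn cells and 1234, 1149 and 1448 CPM in the others (0.87 ± 0.16, adjusted p = 0.021). Its call was lost without library 1 (0.112) and without library 2 (0.098). Klk12, a kallikrein-family protease, had a log2 fold change of 1.86 ± 0.36 (adjusted p = 0.0098, and 0.216 without library 2). Its level was near 0, with 1.12, 4.58 and 1.13 CPM in Cnfn cells and 0.398, 1.12 and 0.298 CPM in the others, and these values overlapped. Cnfn cells held 6, 33 and 4 Klk12 UMIs in all, and the gene was not tested in the fits with matched depth or thinned cells.

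Most keratins were not called. Of 12 superficial and mucosal keratins 3 were higher, 1 was lower and 8 were not called, and of 4 corneal and basal keratins 1 was higher and 1 lower. Over all genes tested 9.85% were higher and 5.43% lower. Krt16, a keratin that skin switches on in wounds and stress (chr11:100246091-100248902), had 77.6, 601 and 379 CPM in Cnfn cells and 9.21, 32.9 and 19.9 CPM in the others. Its log2 fold change was 3.88 ± 0.29 (adjusted p = 0.0040, and 0.051 without library 3). The values did not overlap, but they rested on few cells: 45 of 244, 141 of 365 and 70 of 224 Cnfn cells held Krt16, and the 5 with most of it held 49.9%, 41.5% and 45.2% of its UMIs.

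Krt12, the keratin of corneal differentiation, was also higher, with 10738, 14524 and 10986 CPM in Cnfn cells and 8738, 9897 and 7870 CPM in the others (0.44 ± 0.08, adjusted p = 0.0066, but 0.274 without library 2 and 0.069 without scaling). Krt4, a mucosal keratin used here as a conjunctival marker, had 89.0, 179 and 60.0 CPM in Cnfn cells and 204, 309 and 107 CPM in the others. It was lower in 3 of 3 libraries while the values of the 2 kinds overlapped across libraries (-0.94 ± 0.11, adjusted p = 7.5e-04). Krt15, a keratin of limbal and basal cells, had 1843, 2564 and 1925 CPM against 3715, 4579 and 2537 CPM (-0.75 ± 0.11, adjusted p = 0.0046, and 0.096 without library 2).

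Among list members that passed the filter on low counts, alarmins and cytokines had the largest share of calls beside the early response genes. Of 11 that passed the filter, 8 were higher in Cnfn cells and 0 were lower, where 9.85% and 5.43% of all genes were, with a median log2 fold change of 1.64 (8 and 1 without scaling). Members can pass the filter through the cells in which they are high. With no filter 22 were tested, 10 were higher and 1 was lower, where 7.97% and 6.79% of 15779 genes were called higher and lower. That share was below the 15 of 25 of the desquamation genes, so the rank holds only for members past the filter. Il1a, the interleukin that damaged epithelium releases (chr2:129299610-129309972), had 150, 82.5 and 97.7 CPM in Cnfn cells and 20.2, 24.6 and 19.0 CPM in the others. These did not overlap (2.34 ± 0.23, adjusted p = 0.0045, and 0.176 without library 3). Il1f6, which encodes interleukin-36 alpha, had 82.7, 67.1 and 34.1 CPM in Cnfn cells and 13.1, 14.7 and 10.5 CPM in the others (2.21 ± 0.17, adjusted p = 3.8e-04).

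Tnf, the gene of tumour necrosis factor, had 207, 83.6 and 61.7 CPM in Cnfn cells against 36.0, 20.1 and 16.1 CPM in the others (2.19 ± 0.13, adjusted p = 4.0e-05). Its values did not overlap, and no left-out library took the call away, while without the highest doublet scores the adjusted p was 0.055. Cxcl1, a neutrophil chemokine, had 7.29, 5.0 and 86.2 CPM against 0.177, 0.770 and 4.81 CPM, a log2 fold change of 4.05 ± 0.30 (adjusted p = 4.4e-04), with its highest level in library 3. Few cells carried it: 12, 8 and 4 Cnfn cells of libraries 1 to 3 held Cxcl1, and in library 3 a single cell held 46.7% of its UMIs. Without the highest doublet scores it was 1.80 (adjusted p = 0.540).

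Some antimicrobial genes and most early response genes were likewise higher. Against the same background of 9.85% higher and 5.43% lower over all genes, of 10 antimicrobial genes 4 were called higher and 0 lower (median 1.73, and 4 and 2 without scaling). With no filter on low counts 5 of 16 were higher and 1 lower, beside 7.97% and 6.79% of all genes. S100a7a, a calcium-binding antimicrobial protein, had 1546, 1060 and 436 CPM in Cnfn cells and 253, 201 and 165 CPM in the others (2.15 ± 0.28, adjusted p = 0.020, and 0.176 without library 1). Its values did not overlap, and the excess was smallest in library 3. Lactoferrin (Ltf) and the peptidoglycan-binding Pglyrp4 had log2 fold changes of 1.76 and 1.71 (adjusted p = 0.0081 and 0.0095). Of 16 immediate early genes 12 were higher and 0 lower (median 1.07, and 11 and 0 without scaling). With no filter 13 of 20 were higher and 0 lower. Ier3, an early response gene, had 2610, 1276 and 957 CPM in Cnfn cells and 714, 450 and 502 CPM in the others, without overlap (1.44 ± 0.18, adjusted p = 0.0097, and 0.055 without the highest doublet scores). Of 19 heat shock genes 9 were higher and 0 lower (median 0.51; 6 and 2 without scaling), among them the chaperone gene Dnajb1 at 0.98 ± 0.10 (3.8e-04).

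Nfkbia encodes the inhibitor of NF-κB and is itself a target of that factor. It had 538, 612 and 648 CPM in Cnfn cells and 92.1, 162 and 88.5 CPM in the others. The groups did not overlap, and the log2 fold change was 2.45 ± 0.19 (adjusted p = 0.0025, and 0.097 without library 1). In library 3 the 5 Cnfn cells with most Nfkbia held 50.8% of its UMIs, against 21.9% in library 1 and 14.1% in library 2. The same share in library 3 was 50.9% for the stress gene Gadd45b and 52.2% for Il1a. Gadd45b had a log2 fold change of 2.14 ± 0.15 (4.1e-04), and Ppp1r15a, which directs the dephosphorylation of eIF2-alpha after stress, 1.66 ± 0.13 (1.5e-04). Nppb, a natriuretic peptide gene, had 117, 56.1 and 65.9 CPM in Cnfn cells and 10.6, 2.07 and 5.48 CPM in the others (3.81 ± 0.25, adjusted p = 0.0013, and 0.056 without the highest doublet scores).

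The 250 bases before the RefSeq starts of 3 of these genes are shown, Nfkbia and Il1a because they hold a match to a searched motif and Lce3a because it holds none. All lie on the minus strand of GRCm38.p6, at chr12:55492648-55492897 (Nfkbia), chr2:129309973-129310222 (Il1a) and chr3:92926231-92926480 (Lce3a). Capitals mark matches, on either strand, to the NF-κB letters GGGNN followed directly by TTTCC or to the AP-1 letters TGANTCA.
Nfkbia: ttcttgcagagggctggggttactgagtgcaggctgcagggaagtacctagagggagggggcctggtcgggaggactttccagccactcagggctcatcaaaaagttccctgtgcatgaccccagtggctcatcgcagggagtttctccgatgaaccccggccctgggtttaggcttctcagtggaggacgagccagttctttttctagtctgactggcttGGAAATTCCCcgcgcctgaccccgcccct
Il1a: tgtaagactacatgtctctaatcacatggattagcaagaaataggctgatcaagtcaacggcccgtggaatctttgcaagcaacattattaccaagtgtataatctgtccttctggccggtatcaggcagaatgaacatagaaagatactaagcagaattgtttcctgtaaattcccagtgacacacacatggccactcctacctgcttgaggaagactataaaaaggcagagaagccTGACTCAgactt
Lce3a: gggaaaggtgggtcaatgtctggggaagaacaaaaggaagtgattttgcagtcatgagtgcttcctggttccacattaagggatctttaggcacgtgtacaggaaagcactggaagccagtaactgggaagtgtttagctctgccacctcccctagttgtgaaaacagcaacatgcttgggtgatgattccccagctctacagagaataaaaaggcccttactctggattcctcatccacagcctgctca
The Nfkbia match begins 29 bases before the start and the Il1a match 12 bases before it, and the Lce3a stretch holds neither set of letters. The stretches of Tnf, Nppb and Cdsn hold neither as well. That of Plet1, a gene described below, holds the AP-1 letters, beginning 144 bases before the start. Of the 12 largest higher genes 9 had a promoter entry, and 1 of the 9 held the AP-1 letters and 1 the NF-κB letters. RefSeq promoters were found for 757 of the 961 genes higher in Cnfn cells, 420 of the 530 lower and 7728 of those tested. Over windows of the same length, TGANTCA stood in 8.59% of the promoters of higher genes, in 2.38% of those of lower genes, in 4.46% of the promoters of genes tested and in 6.87% of all RefSeq promoters. The NF-κB letters stood in 2.91% of the promoters of higher genes, 2.14% of those of lower genes, 1.48% of those tested and 1.4% of all. KLF letters (GGGTG followed directly by TGG) stood in 5.55%, 4.29%, 3.64% and 3.19% of these sets in the same order, and GRHL letters (AACCN followed directly by GTT) in 0.793%, 1.90%, 1.67% and 1.71%. The printed matches do not overlap one another, and a match describes the sequence and not binding.

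The largest changes were smaller among the genes lower in Cnfn cells. Muc1, a membrane mucin of the ocular surface, had 53.5, 44.2 and 60.0 CPM in Cnfn cells and 114, 101 and 92.4 CPM in the others (-0.97 ± 0.12, adjusted p = 0.0012). Galnt4, which starts mucin-type O-glycans, had 26.4, 25.1 and 33.5 CPM in Cnfn cells and 53.8, 51.7 and 50.3 CPM in the others (-0.89 ± 0.12, adjusted p = 0.0018). Neither gene's values overlapped. The mucin and glycosylation genes as a group were mixed: of 18, 4 were higher and 2 lower (median 0.07), against 2 higher and 5 lower without scaling (median -0.17). Shares over all genes tested in the main fit were 9.85% higher and 5.43% lower. The membrane mucin Muc4 had 3369, 2366 and 1879 CPM in Cnfn cells and 2244, 1935 and 1996 CPM in the others (0.26 ± 0.12, adjusted p = 0.167).

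Arhgdib had 30.1, 30.1 and 23.7 CPM in Cnfn cells and 60.7, 99.6 and 64.7 CPM in the others (-1.40 ± 0.14, adjusted p = 3.8e-04). Slc16a11, a monocarboxylate transporter, had a log2 fold change of -0.90 ± 0.09 and Mgll, the monoacylglycerol lipase, -0.86 ± 0.11 (adjusted p = 3.8e-04 and 0.0013). In retinoid metabolism 4 of 10 genes were lower and 2 higher. Cyp26b1, which breaks down retinoic acid, had 24.7, 24.6 and 25.4 CPM in Cnfn cells and 33.9, 64.7 and 44.2 CPM in the others (-0.90 ± 0.17, adjusted p = 0.014). That call was lost without library 2 (0.103) and without library 3 (0.067). Of 12 genes of nucleases and nuclear breakdown 1 was higher, 2 were lower and 9 were not called (median -0.06). Dnase1l2, a DNase of keratinocyte nuclear breakdown, was lower by 1.30 on the log2 scale (adjusted p = 7.8e-04). The more abundant nuclease gene Trex2 was the 1 called higher, with 387, 413 and 365 CPM in Cnfn cells and 273, 296 and 291 CPM in the others. Its log2 fold change was 0.43 ± 0.08 (adjusted p = 0.0096, but 0.130 without scaling and 0.242 without library 2).

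Other lists differed in how many members were called, beside 9.85% higher and 5.43% lower over all genes tested. Of 13 genes of the mitochondrial genome 0 were called, against 8 lower without scaling. Of 32 nuclear genes of the respiratory chain 0 were higher and 2 lower (median -0.06), against 16 lower without scaling. Of 11 desmosome genes 0 were higher and 1 lower, against 4 lower without scaling. Of 25 differentiation factors 9 were higher and 2 lower (median 0.25), against 3 and 4 without scaling (median 0.00), with the ETS factor gene Elf5 at 1.08 ± 0.10 (adjusted p = 3.8e-04) and the homeobox gene Hopx at -0.36 ± 0.09 (0.023, but 0.062 without library 1 and 0.361 without library 2). Of 14 hemidesmosome and basement membrane genes 5 were called higher (median 0.62), a count that was 2 of 13 (median 0.08) without the highest doublet scores and 0 of 7 (median -0.17) after thinning.

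**Figure D3:**
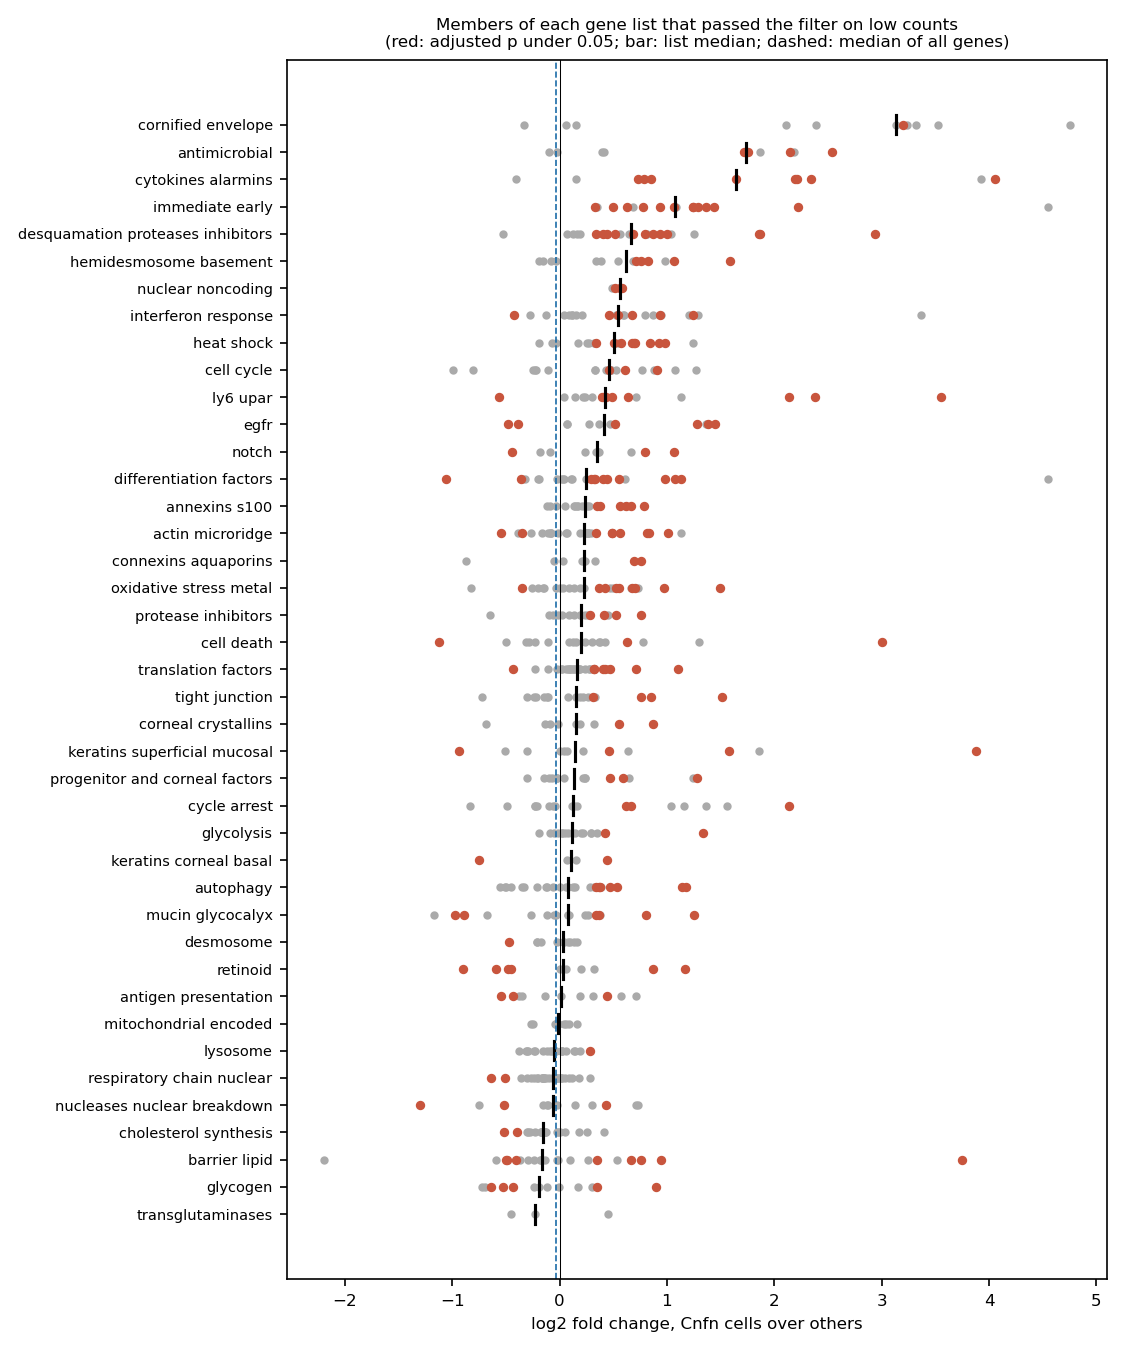
Log2 fold change (Cnfn cells over the others) of the members of 41 gene lists that passed the filter on low counts, with red points for adjusted p under 0.05, bars for list medians and a dashed line at the median of all genes. Cornified envelope genes have the highest median (3.14) with 1 red point, and antimicrobial, cytokine and immediate early genes follow with medians of 1.73, 1.64 and 1.07.

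Markers of cell types from outside the epithelium were near 0, and a few markers of other epithelial classes were higher. Over all genes tested 9.85% were called higher and 5.43% lower. Marker sums are CPM of the library totals, without scaling factors, and cannot be set against the scaled CPM of single genes given above. Summed markers of immune cells reached at most 0.378 CPM in Cnfn cells and 0.948 CPM in the others, and the keratocyte, endothelial, melanocyte, glial and red cell sets each stayed at or below 1.14 CPM in either kind, with 0 markers of these sets passing the filter. Only 1 of 5 listed keratocyte markers (Dcn) and 1 of 3 endothelial markers (Pecam1) were in the deposited matrix, so these 2 sums rest on 1 gene each. The 6 conjunctival markers summed to 5800, 8465 and 8707 CPM in Cnfn cells and 10054, 10832 and 9061 CPM in the others, with 0 higher and 1 lower. The limbal markers summed to 1691, 2482 and 1936 CPM in Cnfn cells and 4261, 5016 and 2800 CPM in the others, and of the 4 that passed 0 were higher and 1, Krt15, was lower. Krt15 made up nearly all of these sums, and Gpha2, Ifitm3 and Krt14 had log2 fold changes of -0.03, 1.21 and 0.15 and were not called. The 4 basal markers summed to 2425, 2725 and 2677 CPM in Cnfn cells and 3306, 2923 and 2585 CPM in the others, and 2 of them were called higher. These were the hemidesmosome genes Col17a1 (0.71 ± 0.10, adjusted p = 0.0028, and 0.078 without the highest doublet scores) and Itgb4 (0.82 ± 0.18, 0.016, and 0.923 without those scores). Both also lost the call without library 2 (0.081 and 0.120). Of 2 epidermal markers that passed, 1 was higher, the skin keratin Krt10 (0.56 ± 0.12, adjusted p = 0.017), which was not called without library 1 (0.064), without library 2 (0.220) or without the highest doublet scores (0.066). Of 4 corneal markers 2 were higher, Krt12 and Tkt, a transketolase abundant in cornea (0.56 ± 0.09, adjusted p = 0.0039). Tkt was not called without library 2 (0.158) or without the highest doublet scores (0.141). Of 5 superficial markers other than Cnfn, 2 were higher: Ly6g6c (0.43 ± 0.09, adjusted p = 0.012) and Slurp1 (0.49 ± 0.07, 0.0037), both encoding Ly6-family proteins and both losing the call without library 2 (0.292 and 0.207). Ly6g6c also lost it without scaling (0.149). Lce3a, Krt78 and Muc4 were not called.

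Lce3a divided the Cnfn cells. At least 10 Lce3a UMIs were held by 65.6%, 51.2% and 27.2% of Cnfn cells in libraries 1 to 3, against 14.3%, 8.80% and 8.30% of the others. After thinning to 2000 UMIs, 67.6%, 53.7% and 29.5% of Cnfn cells and 17.0%, 11.9% and 12% of the others held at least 1 Lce3a UMI, and basal cells, which should lack it, held one in 1.71%, 1.16% and 0.251%. The shares in Cnfn cells were above those in the others in every library.

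Superficial cells were therefore split, after these values were seen, into Lce3a-rich (10 or more UMIs) and Lce3a-poor (0 or 1 UMI) cells. Levels in the split are CPM of the library totals, without scaling factors. Tnf had 261, 132 and 93.4 CPM in rich Cnfn cells, 20.0, 16.6 and 48.2 CPM in poor Cnfn cells, 221, 133 and 111 CPM in rich others and 5.96, 7.21 and 5.82 CPM in poor others. Rich cells with and without Cnfn overlapped, and the poor others were lowest. Nfkbia had 678, 899 and 758 CPM in rich Cnfn cells, 89.4, 154 and 642 CPM in poor Cnfn cells, 444, 1005 and 426 CPM in rich others and 39.2, 75.2 and 57.0 CPM in poor others. Its high level in poor Cnfn cells came from library 3.

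Cdsn and Krt12 were higher with Cnfn among Lce3a-rich and among Lce3a-poor cells. Cdsn had 4.63, 41.1 and 27.5 CPM in rich Cnfn cells, 13.5, 40.2 and 43.3 CPM in poor Cnfn cells, 0, 7.17 and 1.34 CPM in rich others and 2.79, 5.41 and 4.31 CPM in poor others. Fitted within each split, Cnfn cells over others, Cdsn had log2 fold changes of 3.01 among poor cells and 3.34 among rich cells (adjusted p = 4.3e-07 and 7.7e-05) and Krt12 had 0.55 and 0.37 (1.9e-04 and 0.026). Tnf had 2.19 among poor cells (adjusted p = 0.164) and 0.12 among rich cells (0.762), and Nfkbia had 2.05 (0.445) and 0.52 (0.363). Krt16 was called among rich cells (2.94, adjusted p = 4.3e-07) and not among poor cells (3.88, 0.244). Whether the fold changes of the 2 splits differ was not tested.

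Among poor cells 425 of 9176 genes were called (4.63%; 307 higher, 3.35%, and 118 lower, 1.29%), and among rich cells 168 of 6471 (2.6%; 118 higher, 1.82%, and 50 lower, 0.773%). The poor split compared 71, 135 and 143 Cnfn cells with 693, 683 and 2004 others, and the rich split 160, 187 and 61 with 124, 71 and 192. Tgm1 was called higher in both, at 0.55 among poor cells (adjusted p = 0.0070) and 1.26 among rich cells (0.039). Both splits called 58 genes in the same direction, which was 13.6% of the poor calls and 34.5% of the rich calls. They included Cdsn, Il1f6, S100a7a, Pglyrp4, Krt12, Ly6g6c and, among lower genes, Slc16a11. Plet1, a surface protein gene chosen after its values were seen, was another. It had 4936, 3623 and 2696 TMM-scaled CPM in all Cnfn cells and 1276, 1151 and 1173 in the others (log2 fold change 1.60 ± 0.14, adjusted p = 9.2e-04).

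**Figure D4:**
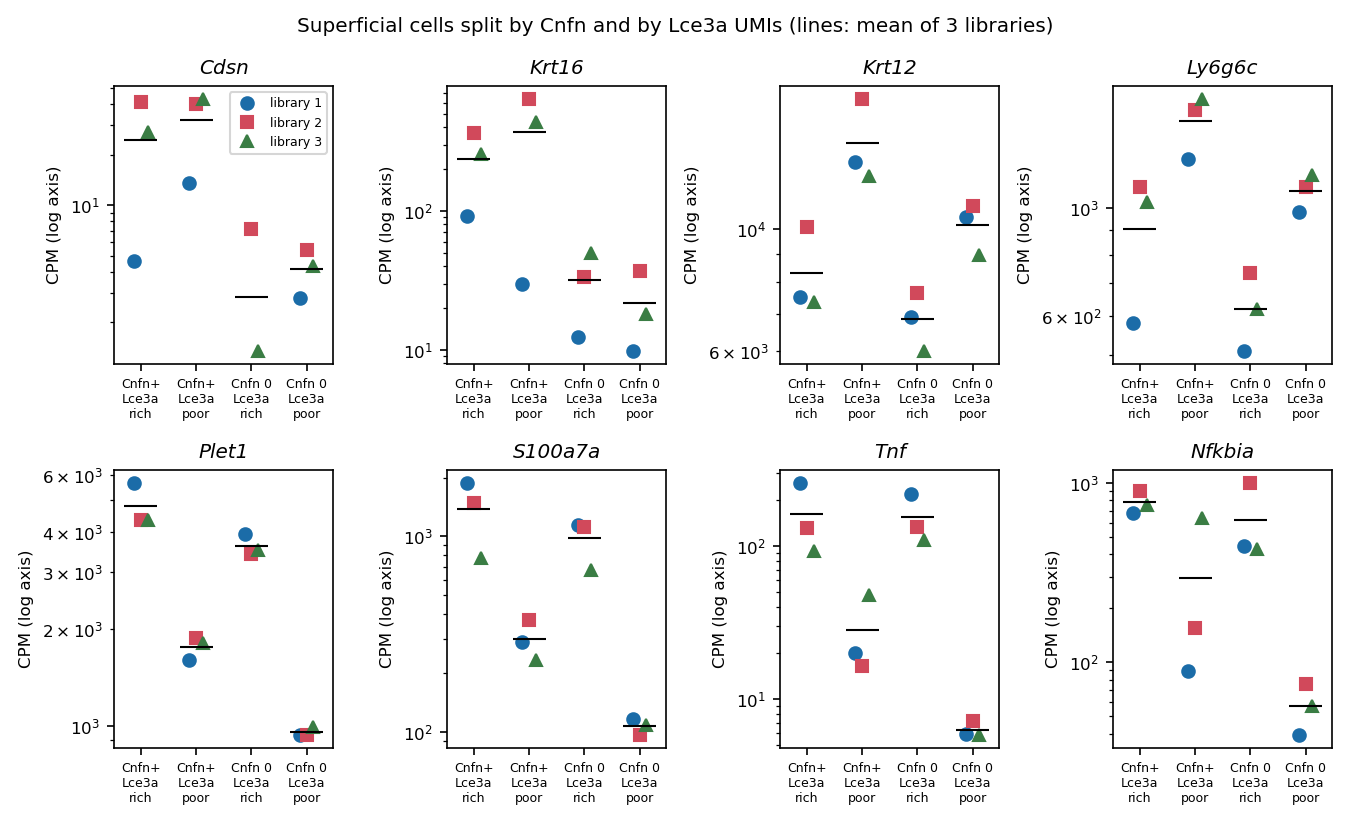
CPM (log axis, without scaling) of 8 genes in superficial cells split by Cnfn (2 or more UMIs, or 0) and Lce3a (rich or poor), with a point for each library and a line at the mean of 3; the Cdsn value of 0 in Lce3a-rich others of library 1 cannot be drawn. In every library Cdsn, Krt16, Krt12 and Ly6g6c lie above their values without Cnfn at either Lce3a level, while Tnf and Nfkbia are high in Lce3a-rich cells with or without Cnfn.

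Levels across Cnfn counts are a description, since Cnfn chose the cells. They are CPM of the library totals, without scaling factors. Lce3a had 1046, 477 and 684 CPM in cells with 0 Cnfn UMIs, 3512, 1669 and 819 CPM just outside the rule at 1 UMI, 7458, 1929 and 1160 CPM just inside it at 2 UMIs and 21777, 11316 and 2376 CPM at 11 or more. Plet1 had 1438, 1230 and 1261 CPM at 0 UMIs, 2235, 1856 and 1676 CPM at 1, 2441, 2353 and 1945 CPM at 2 and 6037, 4151 and 4027 CPM at 11 or more. Both were ordered by Cnfn count over these 4 groups in all 3 libraries. Wing cells, the layer below, had 53.2, 12.9 and 1.77 CPM of Lce3a and 638, 595 and 671 CPM of Plet1, below every superficial bin.

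**Figure D5:**
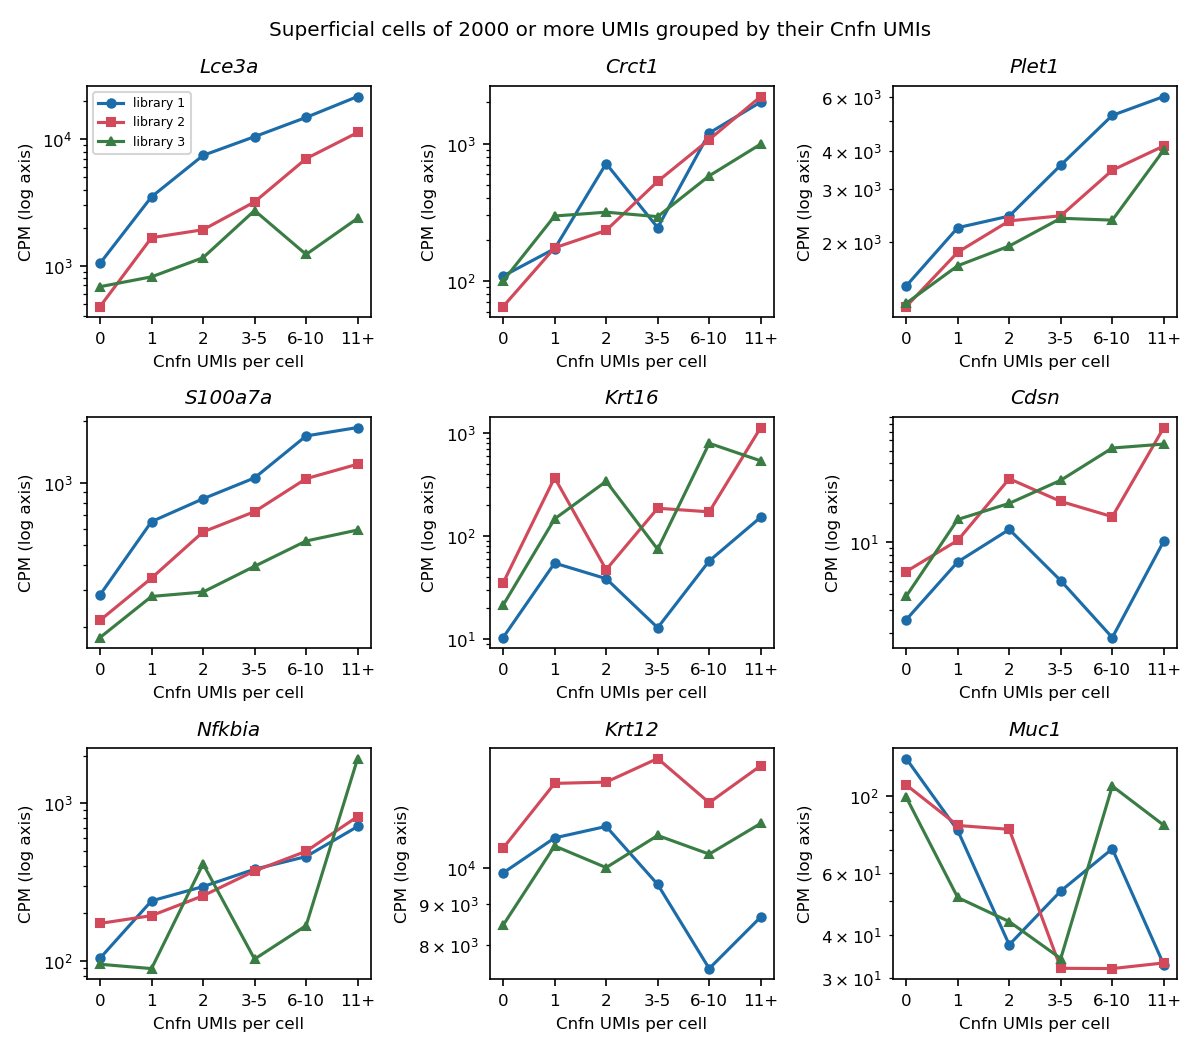
CPM (log axis, without scaling) of 9 genes in superficial cells grouped by the number of Cnfn UMIs per cell, with a line for each library. Lce3a has 1046, 477 and 684 CPM at 0 UMIs and 21777, 11316 and 2376 CPM at 11 or more, and Nfkbia in library 3 is highest in the 11-or-more group.

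The same choice in wing cells, made after the superficial values were seen, gave 24, 53 and 36 Cnfn cells with a median of 41868, 34313 and 14890 UMIs, against 3181, 3353 and 6474 others with 19196, 15885 and 10646. Of 12239 genes 2115 (17.3%) were called, 1214 higher (9.92%) and 901 lower (7.36%). Of the 12 genes largest above, 5 were called higher in wing cells too, among them Il1f6 (3.44 ± 0.77, adjusted p = 1.6e-04) and Ppp1r15a (1.33 ± 0.20, 3.1e-09). Nppb and Tnf were not tested there. The other 10 all had a log2 fold change above 0 in wing cells, such as Krt16, which was not called (3.45 ± 1.17, 0.284). Of the 12 genes largest below, 1 was called lower, Arhgdib (-0.55 ± 0.16, 0.0050). Cdsn was higher in both classes, at 3.72 ± 0.42 in wing cells (adjusted p = 2.1e-16). The change differed between the classes for 1639 of 11331 genes (14.5%) in an edgeR interaction test with Benjamini-Hochberg adjustment, 596 with a more positive change in superficial cells (5.26%) and 1043 with a more negative one (9.2%). Wing Cnfn cells were deeper than the others in every library, with median doublet scores of 0.36, 0.42 and 0.35 against 0.34, 0.32 and 0.34, and the part of either in these values was not tested.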

How the data were processed

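Per the labels' protocols, epithelial sheets were taken off the corneas with an enzyme and made into single cells with trypsin. The matrix deposited by the authors holds UMI counts, whole and not normalised, for each gene in each cell, and a second table gives each cell's library and class. Per the submitters' processing notes Cell Ranger 5.0.0, Seurat 4 and mm10 were used. How cells were filtered, doublets treated and classes made is not stated by the labels. Squam was read as superficial, and library 1 was matched to its name by elimination.

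Raw counts were summed per library over Cnfn cells and others, without Cnfn. They were tested with edgeR 4.0.16 (R 4.3.3; TMM, filterByExpr, robust quasi-likelihood F test, library as block, adjusted p threshold 0.05), with DESeq2 1.42.0 as an alternative. The block holds because both kinds of cells come from the same libraries. Standard errors are the log2 fold change over the square root of F. Thinned counts are random draws without replacement. The doublet score uses 50 neighbours in 30 principal components per library. Named genes are the 12 largest called changes in each direction that had 1 sign throughout the libraries and averaged 5 or more in log2 CPM, up to 4 called members of each of 41 lists, the cornified envelope list and the markers. The members and lists were chosen with earlier results of these data known. On simulated counts for 9773 genes, 38 of 67 changes of 1.5-fold, 60 of 67 of 2-fold and 66 of 66 of 4-fold were recovered with 1 false call. These counts had the same set dispersion (extra spread) for every gene and the same change in every library. The recovery therefore holds for that setting and does not describe the spread of the real sums. Coordinates are from GENCODE M21 and promoters from RefSeq (GRCm38.p6). Crct1, Kprp and Krt16 have no promoter entry there.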

Additional observations from a re-analysis of the deposited data

Results flagged for a closer look

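The change between Cnfn cells and others was compared between superficial and wing cells with an edgeR interaction test with Benjamini-Hochberg adjustment, and 1639 of 11331 genes (14.5%) differed, 596 higher (5.26%) and 1043 lower (9.2%) in superficial cells than in wing cells. The differences below are of log2 fold changes, superficial minus wing. Among the 12 largest higher genes, Nfkbia differed by 2.08 (adjusted p = 5.4e-04), Gadd45b by 1.65 (8.4e-04) and Il1a by 1.56 (0.022). Nfkbia had a log2 fold change of 2.45 in superficial cells and 0.29 in wing cells (adjusted p = 0.0025 and 0.256), and Gadd45b had 2.14 and 0.41 (4.1e-04 and 0.146).

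Among the 12 largest lower genes, 11 differed. The named genes were chosen for their change in superficial cells, which enters the difference too, so its direction is favoured by the choice and is given as a description. Ocm, which encodes the calcium-binding oncomodulin, differed by -1.92, Cyp26b1 by -1.88, Adh6a by -1.66 and Slc16a11 by -1.60. These 4 were called lower in Cnfn cells of the superficial class and higher in those of the wing class, Ocm at -0.93 and 0.91 (adjusted p = 0.0046 and 0.012) and Cyp26b1 at -0.90 and 0.89 (0.014 and 1.0e-07). Tacc1 differed by -1.41, Snx31 by -1.40, Muc1 by -1.37, Galnt4 by -1.28, Mgll by -1.23, Emb by -1.17 and Arhgdib by -0.92. Wing Cnfn cells were 113 in all.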

How the results depend on the processing

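The main comparison called 1491 genes, and another scaling by relative log expression gave 1408. Counts outside 1.5 times the main one were 3292 without scaling (602 higher, 2690 lower), 757 with DESeq2 (630 higher, 127 lower), 2328 with no filter on low counts, 486 with every cell thinned to 2000 UMIs and 442 with cells chosen after thinning. Leaving out 1 library gave 215 to 2466. Without the replicate block by library 446 were called, 431 of them shared with the main comparison in the same direction. Other cell choices gave 1122 (without the highest doublet scores) to 1569 (cells of 5000 or more UMIs). Of the 24 largest changes, 8 were called in every alternative in which they were tested: Il1f6, Gadd45b, Pglyrp4, Ppp1r15a, Arhgdib, Slc16a11, Galnt4 and Mgll. The block decided 7 of the 24, among them Krt16, Tnf and Krt4, with adjusted p-values of 0.098, 0.082 and 0.365 without it. Called changes that reversed were Jag2 (-0.061 without the highest doublet scores) and Col17a1 (-0.34 with cells chosen after thinning). Krt5, not called at 0.07, was -0.49 with cells chosen after thinning. The mean share of Cnfn cells, 18.8%, was 5.01% after thinning to 2000 UMIs. Without thinning and without 1 library it was 14.1% to 24.1%, and the difference in genes per cell -77.0 to -48.6. The cause of these changes was not tested. With 224 Cnfn cells in library 3, single cells can set a sum there.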
